A study of Mus musculus with 14 samples.

Results

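The genes described here were 9 genes of the plasminogen activator system and of blood coagulation: Plau, Plaur, Plat, Serpine2, Serpinb2, F3, Tfpi, Tfpi2 and Thbd. They were chosen by name, as the rows of both normalised count tables that carry one of these symbols, and each of the 9 was found among the 43472 genes listed. The values examined were the level of each gene in every library and its ratio between treated and untreated libraries.

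RNA was sequenced from primary fibroblasts taken from the end of the tail of C57BL/6 mice, grown as a monolayer and wounded by a scratch. The labels give the strain and no other allele, and all groups grew in the same medium with fetal bovine serum. Cells were left untreated or received autologous micrograft (AMG), a filtered extract of mechanically disrupted mouse skin that the study used as its soluble, noncellular fraction, diluted 1:10 in growth medium. The comparison asks what the extract adds to the response of wounded cells. Of the 14 libraries, 8 were replicate 1 of the Untreated and AMG-treated groups at 1, 5, 12 and 24 h, 1 library for each group and time. The other 6 were replicates 2, 3 and 4 of both groups at 5 h. The design text calls the added 5 h samples biological replicates, but the labels do not say whether a number marks a mouse, a culture or a day, so p-values measure the spread between these libraries.

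Plasminogen circulates as an inactive precursor and becomes the protease plasmin, which dissolves fibrin and helps to degrade matrix, when it is cut by the urokinase type activator (Plau) or the tissue type activator (Plat). Urokinase is held at the cell surface by its receptor (Plaur), and serpins such as PAI-2 (Serpinb2) and protease nexin 1 (Serpine2) inhibit the activators. Coagulation starts when tissue factor (F3), a membrane protein of fibroblasts that lie outside vessels, binds factor VII, and it is restrained by the Kunitz type inhibitors Tfpi and Tfpi2 and by thrombomodulin (Thbd), which turns thrombin towards activation of protein C.

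The study examined AP-1, a dimer of Fos and Jun family proteins, as a regulator in these cells. The sequence before the start of each gene was searched for TGANTCA, a pattern that is its own reverse complement apart from the middle base. This pattern is wider than the AP-1 consensus, which has C or G in the middle, and also takes in TGAATCA and TGATTCA. RefSeq promoter entries (build GRCm38.p6) were matched for 6 of the 9 genes, with 10 starts in all; Plau, Plat and Thbd had no entry. The 250 bases before a start held a match in 4 of the 6 genes and in 5 of the 10 windows, and 6.75% of all 32851 such windows held one. The 2 windows of Serpinb2 overlap and share a single match. The cyclic AMP response element letters TGACGTCA, searched on both strands and not overlapping TGANTCA, and the kappaB consensus were found in 0 of the 6 genes, against 1.55% and 3.9% of all windows. Serpine2 and Tfpi had no TGANTCA in these windows. A match describes the letters only and is neither a binding site nor a cause. The windows are shown 5′ to 3′ in the direction of the gene for the 4 genes with a match, with the match in capitals; for Serpinb2 the first of 2 starts and for Tfpi2 the third of 3 starts is given.
F3, chr3:121723287-121723536, plus strand: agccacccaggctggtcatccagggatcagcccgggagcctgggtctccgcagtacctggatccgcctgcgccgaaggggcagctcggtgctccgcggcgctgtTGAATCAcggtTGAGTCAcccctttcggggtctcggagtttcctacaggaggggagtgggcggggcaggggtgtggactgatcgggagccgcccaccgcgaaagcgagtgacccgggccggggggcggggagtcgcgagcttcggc
Serpinb2, chr1:107511173-107511422, plus strand: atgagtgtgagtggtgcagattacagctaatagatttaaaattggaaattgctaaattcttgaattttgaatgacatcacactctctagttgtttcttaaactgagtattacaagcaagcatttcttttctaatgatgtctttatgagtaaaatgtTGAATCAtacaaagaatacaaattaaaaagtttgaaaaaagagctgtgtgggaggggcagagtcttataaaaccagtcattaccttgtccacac
Plaur, chr7:24462233-24462482, plus strand: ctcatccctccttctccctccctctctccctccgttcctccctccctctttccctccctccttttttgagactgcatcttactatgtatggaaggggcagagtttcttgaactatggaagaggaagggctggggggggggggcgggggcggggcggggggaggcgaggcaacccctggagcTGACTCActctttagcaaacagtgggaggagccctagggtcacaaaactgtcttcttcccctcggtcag
Tfpi2, chr6:3968376-3968625, minus strand: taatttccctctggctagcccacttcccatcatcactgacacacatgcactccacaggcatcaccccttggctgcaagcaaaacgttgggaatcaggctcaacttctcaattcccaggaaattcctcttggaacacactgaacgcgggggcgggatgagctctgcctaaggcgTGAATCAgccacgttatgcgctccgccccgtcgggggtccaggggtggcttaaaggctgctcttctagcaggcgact
F3 was the member with 2 matches, TGAATCA at 146 to 140 and TGAGTCA at 135 to 129 bases before the start. Of all windows, 0.338% held 2 or more TGANTCA matches. The match of Plaur lay 69 to 63 bases, that of Serpinb2 94 to 88 bases and that of Tfpi2 77 to 71 bases before the start. It was TGACTCA in Plaur, but TGAATCA, outside the C or G consensus, in Serpinb2 and Tfpi2.

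Recovered from the deposited values, the depth was 12545537 to 34696529 gene-assigned reads a library, so that 3 reads corresponded to 1.62 to 5.22 normalised counts. Each member lay above that floor in every library. Marker levels are given for the 5 h libraries of replicates 2 to 4. The 10 fibroblast markers summed to 485208 to 675537 normalised counts untreated and 412102 to 533552 treated. Of the 10, 7 were lower with AMG in all 3 same-number pairs, among them the collagen genes Col1a1, Col1a2 and Col3a1. Dcn was lower in 2 pairs and Thy1 in 1, and S100a4 was higher in all 3. The 8 endothelial markers, of interest because thrombomodulin and Tfpi are well known from endothelium, summed to 56.3 to 293.8 untreated and 129.9 to 270.5 treated. Emcn and Cldn5 had 0 reads in each library. Esam was higher with AMG in all 3 pairs, at 39.5 to 54.3 untreated and 110 to 183 treated. Tek (8.65 to 226 untreated, 0 to 110 treated) and Kdr, with at most 5 reads, were lower in all 3. The 9 keratinocyte markers summed to 29.2 to 74.8 untreated and 40.7 to 73.8 treated, and Krt5, Krt14, Krt1 and Dsg3 had 0 reads. Krt10, with 11 to 56 reads, and Ivl, with 2 to 28 reads, had higher normalised counts with AMG in all 3 pairs. Trp63 was lower in all 3, with 6 to 77 reads untreated and 0 to 4 treated. The macrophage and leukocyte markers (7 of the 8 listed were in the tables) summed to 237 to 1453 untreated and 512 to 1780 treated. Of these, Cd14 (73.8 to 174 untreated, 307 to 640 treated) and Fcer1g, with at most 40 reads, were higher in all 3 pairs, and 0 were lower in all 3. Replicate 4 stood apart in Lyz2, at 978 untreated and 916 treated, against 76.6 to 158 and 95.9 to 127 in replicates 2 and 3. Itgam had 58 reads untreated and 17 treated in replicate 4, and 0 in replicates 2 and 3. The 5 platelet and megakaryocyte markers summed to 4697 to 14738 untreated and 5212 to 14821 treated, nearly all of it Ppbp, while Gp9 and Gp1ba had 0 reads. The part of these differences in the results was not tested. Replicate 3 stood apart from replicates 2 and 4 in both groups. Its level of Thy1, a fibroblast surface protein, was 12.3 times the geometric mean of the other replicates untreated and 9.04 times treated. Such folds were taken after adding 1 to each value. The values of replicate 3 are given beside the results they touch. In replicate 1, ribosomal protein genes took 6.997% of the reads of the untreated 5 h library and 5.10% of those of the treated 1 h library, against 2.27% to 3.47% in the other 12 libraries. Across 12226 genes, which are not independent replicates, the treated to untreated ratio of replicate 1 followed exon length with a Spearman's rho of 0.43 at 5 h and of -0.44 at 1 h, while the 5 h ratios of replicates 2, 3 and 4 gave -0.33, -0.21 and -0.39.

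At 5 h, the time with replicates, the urokinase side of the system was higher in treated cells. Urokinase, its receptor and PAI-2 were higher in each of the 4 replicates, by 1.02 or more on the log2 scale. Protease nexin 1 and the tissue factor pathway inhibitor Tfpi had fitted differences of 0.17 and -0.13 that did not pass with or without the replicate block described next. Protease nexin 1 was also higher in each of the 4 replicates, by 0.11 to 0.27, and Tfpi in 1 of them. With the block and a correction for exon length together, protease nexin 1 passed (limma adjusted p = 0.00607). In such bulk RNA, a change in the share of a cell type and a change of RNA per cell cannot be told apart. In the comparison of 3 treated with 3 untreated libraries (limma on log2 of the normalised count plus 1, Benjamini-Hochberg adjusted over 13096 genes), 1 of the 9 members, Plau, passed an adjusted p of 0.05, and 1.24% of all genes tested did. Libraries of the same replicate number deviated together across genes, so the number was also fitted as a block: 6 of the 9 members then passed, Plau, Plaur, Plat, Serpinb2, F3 and Thbd, each higher with AMG, against 37.2% of all genes in either direction and 17.9% in the upward direction. With all 4 replicates in one fit (edgeR on recovered reads, replicate number as block), 3 members passed, Plau, Plaur and Serpinb2, against 3.78% of all genes. Without replicate 3, which stood apart, limma passed 3 members (Plau, Plaur and Serpinb2; 21.2% of all genes) without the block and the same 6 as above with it (51.9% of all genes). The treated and untreated libraries did not overlap for 3 members, Plau, Serpinb2 and Thbd, a share close to the 28.7% of all genes. In 6 members every one of the 4 replicates was higher with AMG, which held for 15.7% of all genes. The median log2 fold change of the 9 members was 0.56, beside -0.02 over all genes tested.

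Plau (chr14:20836660-20843385, plus strand, mm10) encodes urokinase. Its normalised counts in untreated replicates 2, 3 and 4 were 2728, 3897 and 4178. In the treated libraries they were 24811, 12865 and 40328. Every treated library lay above every untreated one, and replicate 3 had the lowest treated value. The means were 3601 ± 769 and 26001.5 ± 13770.1 (SD, n = 3 each), and the log2 fold change was 2.73 ± 0.40 (SE; limma adjusted p = 0.0402; 1.0e-04 with the replicate block). Without the block, the limma call was lost when 1 library was left out: adjusted p was 0.175, 0.0678 and 0.135 without untreated replicate 2, 3 or 4 and 0.191 and 0.118 without treated replicate 2 or 4, and it was 0.00522 without treated replicate 3. The ratio within each replicate, replicate 1 included, was 2.33, 3.18, 1.72 and 3.27 on the log2 scale for replicates 1 to 4.

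Plat (chr8:22757727-22782844, plus strand), the tissue type activator, had 4081, 6877 and 2445 normalised counts in untreated replicates 2, 3 and 4 and 6895, 8603 and 4025 in the treated ones. Each treated library lay above its untreated partner, but the groups overlapped, because replicate 3 was high and replicate 4 low in both. The log2 fold change was 0.60 ± 0.42 (SE; limma adjusted p = 0.422; 0.00298 with the replicate block), so the difference was smaller than the spread between replicates and passed in limma only once that spread was taken out. The edgeR fit of all 4 replicates, which also has the block, gave an adjusted p of 0.152. In replicate 1 the ratio at 5 h was 0.17 and became -0.05 when the trend with exon length was removed.

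Plaur (chr7:24462484-24475968, plus strand) encodes the urokinase receptor. Untreated replicates 2, 3 and 4 had 5348, 2657 and 6008 normalised counts, and the treated ones 11531, 5376 and 12915. Each treated library was well above its partner, while treated replicate 3 lay within the untreated range. The log2 ratio was 1.02, 1.11, 1.02 and 1.10 in replicates 1 to 4, so the uncorrected ratios gave nearly one value. With a correction for exon length, replicate 1 gave 1.36 and the fit of replicates 2 to 4 gave 0.95. In the fit without that correction the log2 fold change was 1.08 ± 0.42 (SE; limma adjusted p = 0.195; 4.54e-05 with the replicate block). With all 4 replicates edgeR gave an adjusted p of 0.0131.

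Serpinb2 (chr1:107511423-107535478, plus strand) encodes PAI-2, an inhibitor of urokinase that largely stays inside cells. Untreated replicates 2, 3 and 4 had 102, 824 and 45.4 normalised counts, and the treated ones 2104, 7084 and 1884. All treated libraries lay above all untreated ones. In both groups replicate 3 was the highest, at 11.9 times the geometric mean of the other replicates untreated and 3.56 times treated. The log2 fold change of 4.26 ± 1.05 (SE) was the highest of the 9 members, but with this spread limma gave an adjusted p of 0.0981, against 3.41e-05 with the replicate block. The log2 ratios were 2.32, 4.35, 3.10 and 5.34 in replicates 1 to 4, and edgeR on all 4 gave an adjusted p of 0.0170. The gene overlaps Serpinb10 on the same strand in the GENCODE M21 annotation, so reads in the shared stretch are uncertain.

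Serpine2 (chr1:79794197-79861180, minus strand) encodes protease nexin 1, a secreted inhibitor of urokinase, tissue type activator and thrombin. Untreated replicates 2, 3 and 4 had 17441, 4012 and 9552 normalised counts, and the treated ones 19227, 4846 and 10291. Each treated library lay above its untreated partner. Across the groups the libraries sorted by replicate number and not by treatment, with replicate 3 at 0.31 times the geometric mean of the others untreated and 0.34 times treated. The log2 fold change was 0.17 ± 0.65 (SE; limma adjusted p = 0.898; 0.149 with the replicate block), and its sign turned when a single library was left out, with values from -0.39 to 0.69.

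**Figure D1:**
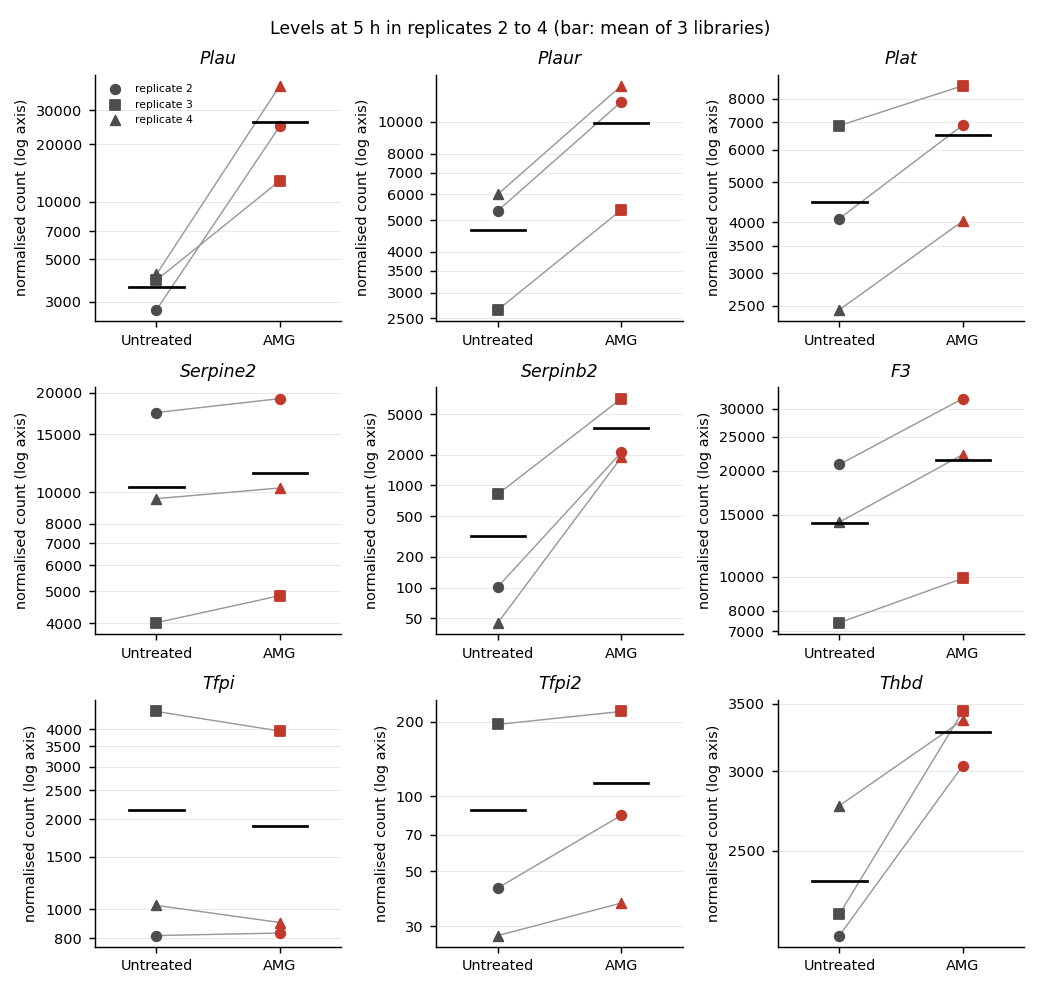
Normalised count (log axis) of each of the 9 genes in the untreated and AMG-treated libraries at 5 h. Grey lines join libraries of the same replicate number, black bars mark the mean of 3 libraries, and the red treated symbols of Plau, Serpinb2 and Thbd lie above all untreated symbols.

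F3 (chr3:121723537-121735048, plus strand), tissue factor, had 20841.5, 7398 and 14285 normalised counts in untreated replicates 2, 3 and 4 and 32077, 9888 and 22244 in the treated ones. Each treated library was above its partner and the groups overlapped, since replicate 3 was the lowest of both. The fitted log2 fold change was 0.56 ± 0.52 (SE; limma adjusted p = 0.543; 0.00255 with the replicate block). With all 4 replicates edgeR gave an adjusted p of 0.263. Replicate 1 went the other way at 5 h, with a log2 ratio of -0.09, which became 0.26 with the length trend removed.

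Tfpi (chr2:84432855-84476775, minus strand) encodes the inhibitor of the tissue factor and factor VIIa complex. Its untreated values were 817, 4581 and 1030.4 normalised counts and its treated values 833, 3942 and 904 in replicates 2, 3 and 4. Replicate 3 had 4.99 times the geometric mean of the others untreated and 4.54 times treated, and within each number the treated and untreated libraries were close. On the log2 scale the fold change was -0.13 ± 0.82 (SE; limma adjusted p = 0.945; 0.329 with the replicate block), and single libraries left out moved it from -0.85 to 0.65.

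Tfpi2 (chr6:3962595-3988919, minus strand), a related inhibitor of plasmin and other trypsin-like proteases, was the member with the fewest reads. It had 42.9, 195 and 27.6 normalised counts in untreated replicates 2, 3 and 4 and 84.0, 220 and 37.3 in the treated ones. All 3 same-number pairs were higher with AMG, and replicate 3 was again the highest in both groups. Its fold change on the log2 scale was 0.52 ± 0.87 (SE; limma adjusted p = 0.757; 0.117 with the replicate block) and ran from -0.14 to 1.34 with single libraries left out.

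Thbd (chr2:148404466-148408188, minus strand), thrombomodulin, had 2059, 2162 and 2772 normalised counts in untreated replicates 2, 3 and 4. The treated libraries had 3037, 3438 and 3372. The groups did not overlap, and replicate 3 did not stand apart, at 0.91 times the geometric mean of the others untreated and 1.07 times treated. The means were 2331 ± 385 and 3282 ± 215 (SD, n = 3 each) and the log2 fold change 0.50 ± 0.15 (SE; limma adjusted p = 0.122; 0.00507 with the replicate block). This standard error was the smallest of the 9 members. With all 4 replicates edgeR gave an adjusted p of 0.0882.

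**Figure D2:**
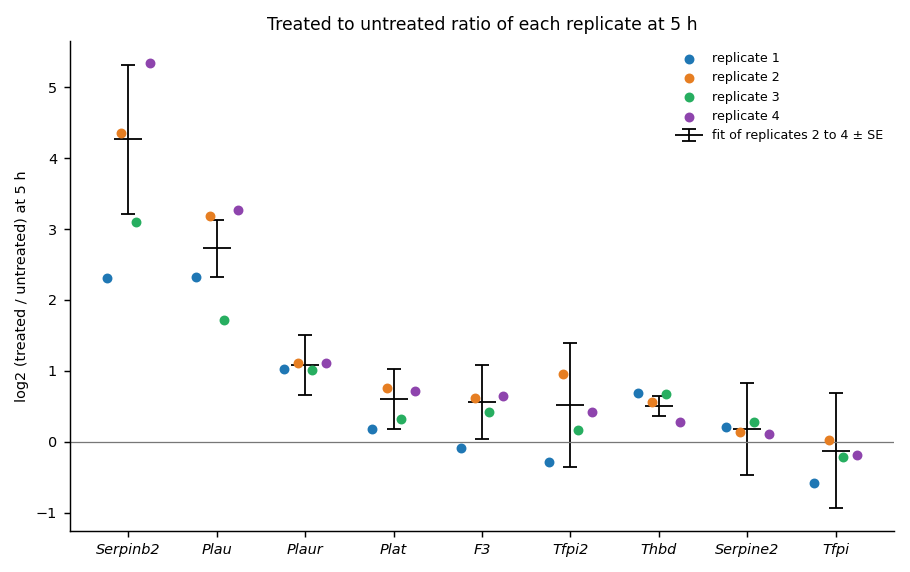
Log2 ratio of treated to untreated at 5 h in replicates 1 to 4 (coloured points) for each gene, with the limma log2 fold change of replicates 2 to 4 and its standard error in black. Serpinb2 and Plau lie above 1.7 in every replicate, Plaur sits between 1.02 and 1.11, the points of Serpine2 lie between 0.11 and 0.27, and those of Tfpi run from -0.58 in replicate 1 to 0.03 in replicate 2.

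Levels were compared between genes per kb of merged exon. In untreated cells at 5 h, tissue factor led with 5609 ± 2660 normalised counts per kb (SD, n = 3). It was followed by Plaur with 1785, Plau with 1521 and Serpine2 with 1247, and then by Plat with 716, Thbd with 626, Tfpi with 392.3, Serpinb2 with 138 and Tfpi2 with 50.6. The libraries of F3 and Plaur did not overlap on this scale, and each other pair of neighbours in the order overlapped. In treated cells Plau came first with 10985 ± 5818 and F3 next with 8470, and their ranges overlapped. Plaur had 3798, Serpinb2 1571, Serpine2 1382, Plat 1043, Thbd 882, Tfpi 346 and Tfpi2 65.1 normalised counts per kb. Of these neighbours Thbd and Tfpi, and Tfpi and Tfpi2, did not overlap. Serpinb2 was the eighth gene in the untreated order and the fourth gene in the treated one, where replicate 3 had 3016 per kb. Without replicate 3 its treated mean was 849 and it was the seventh gene, below Serpine2, Plat and Thbd, and its untreated mean was 31.4.

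Replicate 1 gave the course over time, with 1 library for each group and time and therefore no test. The intervals given are exact Clopper-Pearson intervals at 95% that cover counting error only, since 1 library gives no spread between libraries. Reads carry no molecular identifiers, so copies of 1 molecule cannot be told from separate molecules. Half-widths of the intervals ran from 0.025 to 0.269 on the log2 scale for the members other than Tfpi2 and reached 0.313 for Tfpi2. Of the 36 ratios, 1 had an interval that held 0. At 1 h all 9 members had a log2 ratio above 0, against 47% of the 13498 genes that averaged 10 or more, and 4 were above 1, against 11.3%. With the length trend removed, 2 stayed above 1 at 1 h, Plau and Serpinb2, and F3 and Tfpi2 had 0.93 and 0.89. At 5 h there were 6 above 0 (49.8% of all genes) and 3 above 1 (13.3%). At 12 h there were 6 above 0 (48.9%) and 5 above 1 (5.93%), and at 24 h 6 above 0 (51.6%) and 5 above 1 (6.05%). Below -1, a fall by more than a factor of 2, there were 0 members at 1 h and 0 at 5 h, against 10.7% and 12.6% of all genes, and 1 each at 12 and 24 h, against 6.9% and 8.05%. That member was F3 at both times. The median log2 ratio of the members was 0.93, 0.20, 1.25 and 1.31 at 1, 5, 12 and 24 h, and the median of all genes stayed between -0.06 and 0.02.

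Plau had 9088, 4768, 1240.4 and 1994 normalised counts in untreated cells at 1, 5, 12 and 24 h. Treated cells had 37228, 23986, 10685 and 4962. The gene was highest at 1 h in both groups and lower at each later treated time, while the treated library stayed above the untreated one at every time. The log2 ratio was 2.03, 2.33, 3.11 and 1.31, highest at 12 h, when the untreated level was lowest.

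Plaur had 6344, 6602, 2413 and 969 untreated and 12074, 13432, 6088 and 3554 treated normalised counts over the same times. Both groups kept their level to 5 h and then declined, the untreated one further. The log2 ratio therefore went from 0.93 and 1.02 to 1.33 and 1.87.

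Plat had 5766, 5573, 3964 and 4746 untreated and 8506, 6282, 3608 and 3301 treated normalised counts. The treated library was the higher at 1 and 5 h and the lower at 12 and 24 h, with log2 ratios of 0.56, 0.17, -0.14 (95% interval -0.20 to -0.08) and -0.52. At 12 and 24 h the ratio of Plau was above 1 and that of Plat below 0, on 1 library for each group and time.

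Serpinb2 had 2737, 3606, 449 and 95.7 untreated and 15392, 17951, 8505 and 1455 treated normalised counts. Its level was highest at 5 h in both groups, 0.40 untreated and 0.22 treated above the 1 h value on the log2 scale. Levels over time were not corrected for the trend with exon length. At 24 h the untreated level had dropped by 4.82 on the log2 scale from its 1 h value and the treated level by 3.40. The log2 ratios were 2.49, 2.32, 4.24 and 3.91, the highest of the members at each time except at 5 h, when Plau had 2.33.

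Serpine2 had 18749, 22056, 18148 and 15809 untreated and 24879, 25417, 25530.3 and 26590.1 treated normalised counts. The treated libraries stayed within a narrow range and the untreated level declined after 5 h. The log2 ratio was 0.41, 0.20, 0.49 and 0.75, and the 5 h value became -0.16 with the length trend removed.

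The tissue factor ratio changed sign over time in replicate 1. F3 had 13870, 8202, 7183 and 7732 untreated and 32031, 7694, 2308 and 2388 treated normalised counts at 1, 5, 12 and 24 h. The treated library was the higher at 1 h, about level at 5 h and the lower at 12 and 24 h. The log2 ratio was 1.21 (1.18 to 1.24) at 1 h, -0.09 (-0.14 to -0.04) at 5 h, -1.64 (-1.70 to -1.57) at 12 h and -1.69 (-1.76 to -1.63) at 24 h. Within the treated libraries the level dropped by 3.79 on the log2 scale from 1 to 12 h, and within the untreated ones by 0.95.

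Tfpi had 3284, 3979.8, 3017 and 3759 untreated and 4338, 2669.8, 2629 and 2822 treated normalised counts. It was higher with AMG at 1 h and lower at the 3 later times, by log2 ratios of 0.40, -0.58, -0.20 and -0.41. Tfpi2 had 159, 295, 151 and 91.1 untreated and 435, 243, 425 and 280 treated normalised counts, on 119 to 446 reads a library. Its log2 ratio was 1.44, -0.28, 1.48 and 1.61, so the 5 h library pair departed from the other times, and with the length trend removed the 5 h value became 0.32.

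Thbd had 2587, 1182, 1066 and 1624 untreated and 2612, 1895, 2539 and 4521 treated normalised counts. The groups were level at 1 h and then parted, and the treated level was lowest at 5 h and highest at 24 h. The log2 ratio was 0.01 (-0.08 to 0.10), 0.68, 1.25 and 1.48. In treated cells the level at 24 h was 0.79 above that at 1 h on the log2 scale, and in untreated cells it was 0.67 below.

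**Figure D3:**
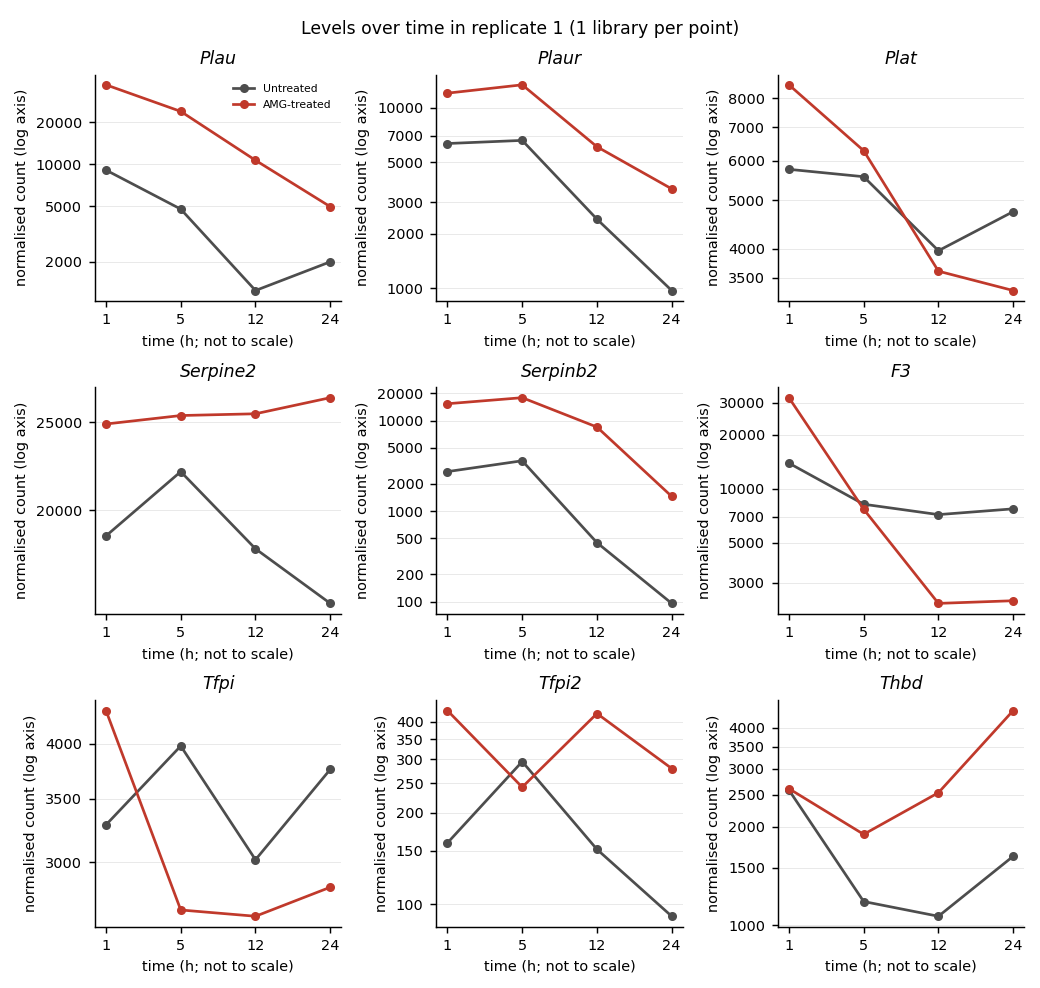
Normalised count (log axis) of the 9 genes at 1, 5, 12 and 24 h in replicate 1, with untreated libraries in grey and AMG-treated libraries in red, 1 library per point. The treated line of F3 starts above the untreated line and ends below it, while those of Plau, Plaur and Serpinb2 stay above at all 4 times.

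Ratios of reads of a pair of genes in the same library do not depend on the scaling of the library, but they do depend on the trend with exon length, since the genes of a pair differ in length. They are described here with no test. The log2 ratio of Plau to Serpine2 reads was -2.68, -0.04 and -1.19 in untreated replicates 2, 3 and 4 and 0.37, 1.41 and 1.97 in the treated ones. In these 3 it was above 0 with AMG and below 0 without. A value of 0 marks equal reads and not equal levels, since merged exons span 2.367 kb in Plau and 8.287 kb in Serpine2. Per kb, untreated Plau was above Serpine2 in replicates 3 (1647 against 484) and 4 (1765 against 1153). It was below Serpine2 in untreated replicate 2 (1152.5 against 2105). In replicate 1 the log2 ratio of reads was -1.04, -2.21, -3.87 and -2.99 untreated and 0.58, -0.08, -1.26 and -2.42 treated at 1, 5, 12 and 24 h. The treated ratio was thus the higher at each time, and treated reads of Plau outnumbered those of Serpine2 at 1 h only. Per kb, treated Plau was above Serpine2 at 1 h (15728 against 3002), 5 h (10133.5 against 3067) and 12 h (4514 against 3081). At 24 h it was below Serpine2 (2096 against 3209). The treated minus untreated differences of the log2 ratio of reads in replicate 1 were 1.63, 2.13, 2.61 and 0.57. They became 0.93, 2.89, 2.80 and 0.35 with the length trend removed.

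The log2 ratio of Plat to Serpine2 moved less. It differed between treated and untreated by 0.62, 0.05 and 0.61 in replicates 2, 3 and 4 and by 0.15, -0.03, -0.63 and -1.27 at the 4 times of replicate 1. The log2 ratio of F3 to Tfpi was 4.67, 0.69 and 3.79 in untreated replicates 2, 3 and 4 and 5.27, 1.33 and 4.62 in the treated ones. Replicate 3 had the lowest ratio in both groups, and each treated library exceeded its partner, by 0.59, 0.64 and 0.83. In replicate 1 the difference was 0.81 and 0.48 at 1 and 5 h and -1.44 and -1.28 at 12 and 24 h. With the length trend removed these differences were 0.30, 0.99, -1.33 and -1.44, those of Plat to Serpine2 kept their signs except at 5 h (0.11), and the F3 to Tfpi differences of replicates 2, 3 and 4 were 0.32, 0.53 and 0.53.

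**Figure D4:**
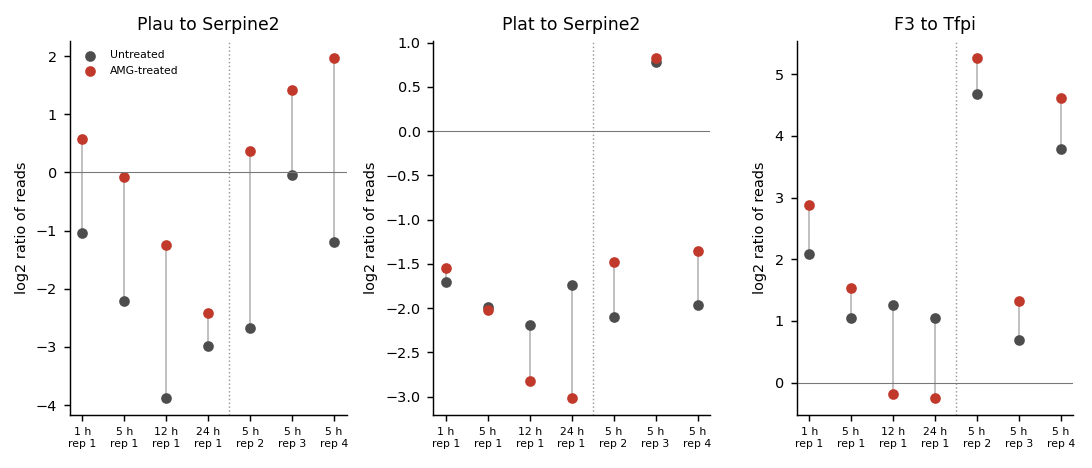
Log2 ratio of the reads of Plau to Serpine2, Plat to Serpine2 and F3 to Tfpi in each of the 14 libraries, untreated in grey and AMG-treated in red, with replicate 1 left of the dotted line and replicates 2 to 4 at 5 h right of it. The treated Plau to Serpine2 ratio lies above the untreated one in all 7 pairs, and in replicate 1 the F3 to Tfpi ratio is higher with AMG at 1 and 5 h and lower at 12 and 24 h.

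A wider list of 50 further genes of plasminogen activation and coagulation was read in the same fit, and 25 of them had a mean of at least 10 normalised counts at 5 h. Without the block 1 of the 25 passed in limma, Procr (1.24% of all genes). With the block 7 passed as higher and 5 as lower, against 17.9% and 19.3% of all genes. Their median log2 fold change was -0.15. Procr, the endothelial protein C receptor, had 815, 340 and 717 normalised counts in untreated replicates 2, 3 and 4 and 7119.7, 2510.3 and 5665 in the treated ones. The groups were far apart, and the log2 fold change was 3.00 ± 0.47 (SE; limma adjusted p = 0.0414; 1.99e-07 with the replicate block). In replicate 1 its log2 ratio was 2.10, 2.37, 2.78 and 3.04 at 1, 5, 12 and 24 h. Without the block, the number of genes of the list that passed was 0 when any one library other than treated replicate 3 was left out, and 5 when that one was.

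The genes that passed as higher with the block beside Procr were Adtrp (log2 fold change 3.00), a regulator of Tfpi known from endothelial cells, the protease-activated receptor gene F2rl1 (1.43), S100a10 (1.14) and Anxa2 (0.39), which form a cell surface complex that binds plasminogen, Vkorc1 (0.47), an enzyme of the vitamin K cycle, and Mcfd2 (0.46), a cargo receptor for factors V and VIII. Adtrp was low, at 4.45 ± 3.09 untreated and 39.2 ± 14.4 treated normalised counts (SD, n = 3). Those that passed as lower were the thrombin receptor F2r (-0.78), factor V (F5, -0.94), the collagen receptor Mrc2 (-0.46), protein S (Pros1, -0.31) and Lman1 (-0.31), the partner of Mcfd2. In replicate 1 at 5 h, 5 of the 11 of these genes with a ratio had the opposite sign: S100a10 (-0.84), Vkorc1 (-0.93), Mcfd2 (-0.56), Mrc2 (0.34) and F5 (1.08). These ratios were not corrected for the trend with exon length, which in replicate 1 at 5 h ran opposite to that of replicates 2 to 4. The part of that trend in the signs was not tested. With all 4 replicates in the edgeR fit, 3 of the 12 passed, Procr, Adtrp and F2rl1. F2r, which had 5506 ± 1171 untreated and 3192 ± 563 treated normalised counts, and F2rl1, with 35.0 ± 14.2 and 94.8 ± 33.6, passed in opposite directions with the block.

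The plasminogen receptor gene Plgrkt had a log2 fold change of 0.02 ± 0.13 (SE; limma adjusted p = 0.936; 0.898 with the replicate block) in replicates 2 to 4, but its ratio in replicate 1 was 1.38 at 1 h and -1.53 at 5 h, and the edgeR fit of all 4 replicates gave -0.35 (adjusted p = 0.590). The replicate 1 ratios of Plgrkt were not corrected for the trend with exon length. Plg, plasminogen itself, was below the minimum and was not tested. Among the 25 genes below the minimum, 17 had at most 3 reads in each of the 6 libraries and 12 had 0 reads, among them prothrombin (F2), factors IX and XI (F9, F11) and the fibrinogen chains (Fga, Fgb, Fgg).

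**Figure D5:**
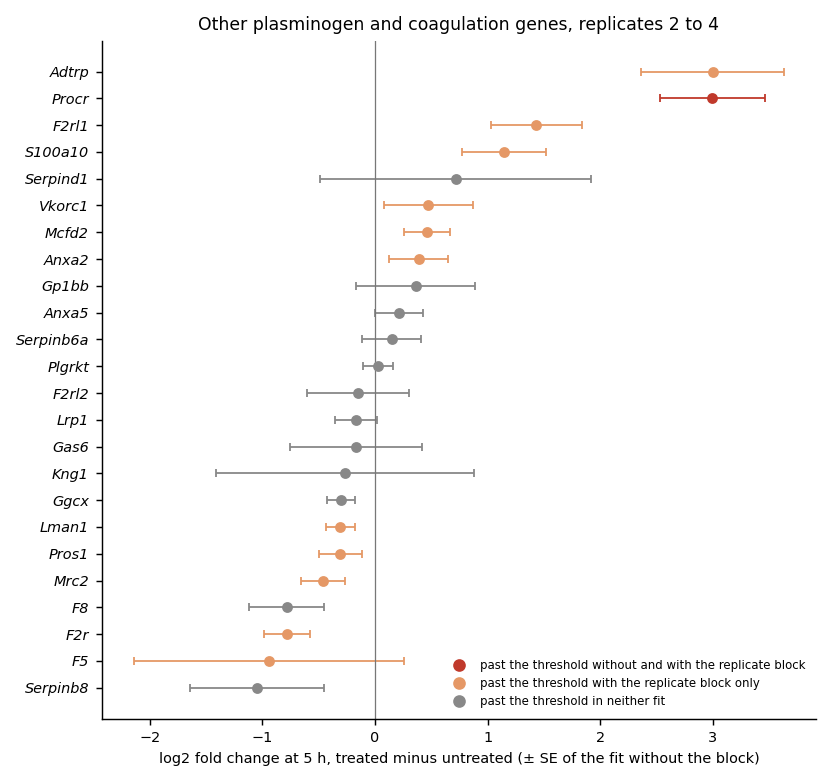
Log2 fold change at 5 h (treated minus untreated, replicates 2 to 4) with the standard error of the limma fit without the block, for 24 of the 25 tested genes of the wider list. Adtrp and Procr lie near 3.00, Procr alone passed without the block, and Plgrkt lies at 0.02 in these replicates.

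Genes with the most similar course were named by the Euclidean distance over the 7 treated to untreated log2 ratios, among 12844 genes that averaged 10 or more in each table. Nearest to Serpinb2, the member with the highest 5 h fold change, were the chemokine Cxcl5 at a distance of 1.35, the cytokine Tslp at 1.44 and the receptor Cd40 at 1.78. The log2 fold change at 5 h was 4.76 for Cxcl5, 3.90 for Tslp and 4.09 for Cd40. Nearest to Tfpi, the member with the lowest, were Snrpn at 0.218, Erlec1 at 0.228 and Micu3 at 0.304. These genes, like Tfpi, had a ratio above 0 at 1 h and below -0.50 at 5 h in replicate 1. The distances describe these libraries, in which the genes share depth and length trends, and carry no test.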

How the data were processed

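Stranded poly(A) libraries were sequenced from 14 samples. Per the labels and the study's methods, reads were aligned to mm10 with TopHat2 2.0.13 and counted per gene with HTSeq 0.5.3p3; which annotation and strand option HTSeq was run with is not given in the sources used here. The deposited values are a normalised signal: the authors divided each library's read counts by a DESeq size factor, separately for replicate 1 (8 libraries) and for replicates 2 to 4 (6 libraries), so levels were not compared across the 2 tables. Dividing by the step of each library gave whole reads for 100% of values (tolerance 0.1).

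Groups were taken from the sample titles. The test was limma 3.58.1 in R 4.3.3 (lmFit, eBayes with trend) on log2(normalised count + 1), a scale that understates the change of low genes, for 13096 genes with a mean of at least 10, with Benjamini-Hochberg adjustment over all of them. The study used DESeq; edgeR 4.0.16 and DESeq2 1.42.0 on recovered reads were alternatives, because the deposited values are no longer counts. Treated and untreated libraries of the same number deviated together (r = 0.65, 0.76 and 0.70 for replicates 2, 3 and 4, against -0.59 to 0.12 for different numbers), so the pairing comes from the data and the blocked fit is given too. Deviations were taken from the mean of the 3 libraries of a group. A positive r for the same number therefore lowers r for different numbers, and the contrast is partly built in. Replicate 1 was described by ratios with counting intervals. The length trend was removed as a local regression of the ratio on exon length; its use on ratios within libraries, and levels per kb without replicate 3, were added after seeing the data. Coordinates and exon lengths are from GENCODE M21 (GRCm38, the same build as mm10), and promoters from RefSeq. The fits were tested on simulated data with a single dispersion and with no replicate effect or length trend. That test therefore does not cover these features of the libraries.

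The 9 genes, the wider list and the tests were chosen with earlier results of these data known. Named genes were the 9, those of the wider list past the threshold with or without the block, Plg and Plgrkt, and the 3 genes nearest to the members with the highest and the lowest fold change. Protein sequences were not used here, and 1 gene of the wider list is not reported here.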

Additional observations from a re-analysis of the deposited data

Results flagged for a closer look

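Plat had log2 ratios above 0 at 5 h in all 4 replicates (0.17, 0.76, 0.32 and 0.72 in replicates 1 to 4), while the single pairs of replicate 1 at 12 and 24 h were below 0, at -0.136 and -0.524. The difference between the times was not tested, as the later times have 1 library in each group, and the 5 h ratio of replicate 1 falls to -0.05 when the trend with exon length is removed.

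Among the 4 untreated libraries at 5 h, 2 values stood apart from the rest by Dixon's gap criterion at 95%. Replicate 4 was the deepest, with 34696529 reads, and only just passed the critical value. Ribosomal protein genes took 6.997% of the reads in replicate 1, with a gap ratio of 0.884. That library is the untreated side of every 5 h ratio of replicate 1, including those of F3 and Tfpi2, which differ in sign from replicates 2 to 4. Its part in those signs was not tested. The search covered 13 groups of 4 values, and chance marks about 1 group in 20.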

How the results depend on the processing

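Of the 9 members 1 passed in the comparison of replicates 2 to 4; the count was 6 with the replicate block in limma or edgeR, 7 with the block and a correction for exon length (Serpine2 added, log2 fold change 0.36, adjusted p = 0.00607), 3 with DESeq2, 3 with edgeR on all 4 replicates and 0 in limma without the trend (4 members had an unadjusted p under 0.05 in the fit with it). The block by itself changed no call of Serpine2, Tfpi or Tfpi2. For the wider list the count of 1 became 12 with the block in limma, in edgeR or with the length correction, 5 with DESeq2, 3 with edgeR on all 4 replicates and 0 without the trend. Leaving libraries out gave 0 to 6 members and 0 to 17 genes of the wider list; the highest values came without replicate 3, with the block (6 and 17), an alternative chosen after seeing the data, and without replicate 3 and without the block the counts were 3 and 5. Plau was called in 16 of 22 settings, with a log2 fold change of 2.33 to 3.23, and had an adjusted p of 0.0691 without the trend. Leaving out single libraries turned the sign of Serpine2 (-0.39 to 0.69), Tfpi (-0.85 to 0.65) and Tfpi2 (-0.14 to 1.34); the cause was not tested. In replicate 1 at 5 h the length correction reversed Plat (-0.048), Serpine2 (-0.16), F3 (0.26) and Tfpi2 (0.32), and the numbers of members above 0 at the 4 times stayed within 1.5 times under each alternative, while the number above 1 at 1 h went from 4 to 2 with the length correction. Over all genes, 162 were called, 4872 with the block, 1434 with DESeq2, 80 without the trend, 494 with edgeR on all 4 replicates and 1 to 2200 with 1 library left out. With 1 library per group, replicate 1 gives no estimate of biological spread, and depth limits mainly Tfpi2.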
